A study of Homo sapiens with 60 samples.

Results

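Fibrinogen is the soluble plasma protein that thrombin turns into the fibrin of a clot. It is a dimer of 3 different chains, the A-alpha chain from FGA, the B-beta chain from FGB and the gamma chain from FGG, which are joined by disulfide bonds in the endoplasmic reticulum before secretion. The genes lie side by side, are transcribed mainly in hepatocytes under liver-enriched factors such as C/EBP, and are raised in the acute phase by interleukin 6 acting through gp130 and STAT3. Lung epithelial lines such as A549 also make fibrinogen. The 3 genes were taken from a table of 60675 gene identifiers by matching Ensembl identifiers to symbols, and all 3 had reads in all 60 libraries. They were selected on their CPM and fitted folds in these same libraries, which an earlier reading of the data had shown low under some extracts. Their levels, folds and ratios are therefore given as description, without a test.

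The libraries are RNA sequencing of the human lung carcinoma line A549 after 24 h in culture with a hot-water herbal extract or with dimethyl sulfoxide (DMSO) as the vehicle, which had 3 libraries. The extracts came from Aconiti Lateralis Radix Preparata, Bupleuri Radix, Cimicifugae Rhizoma and Citri Unshius Pericarpium as single herbs and from Banhasasim-tang, Yijung-tang and Bojungikgi-tang as herb mixtures, each called here by its opening word. Aconiti was given at 360 (high), 72 (medium) and 14.4 (low) µg/mL and every other extract at 500, 100 and 20 µg/mL. Each dose had 3 libraries, apart from Bojungikgi with 1 library per dose. Vehicle carries a set label that none of the extracts shares, so extract and set cannot be told apart against vehicle, whereas the doses of 1 extract share a set label. Citri shares its set label with Cimicifugae, Bupleuri with Aconiti, and Yijung with Banhasasim. All titles, vehicle included, carry the same batch name. DMSO is given for the vehicle only, and the sources differ on its concentration: the sample labels have 0.1% and the design text has 2%. A single line at a single time was studied, and the labels do not say whether replicates came from separate cultures, so p-values measure only the spread between these libraries.

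Total counts ran from 17793655 to 30188211 per library. Each library held 1302 to 4758 counts of FGA, 1223 to 5151 of FGB and 687 to 2845 of FGG. The cells had the epithelial keratins KRT8 at 2661 to 4718 CPM (counts scaled to a common library total) and KRT18 at 2117 to 3783 CPM. The defining alveolar type 2 cell genes SFTPA1, SFTPB, SFTPC and NKX2-1 reached at most 0.232 CPM, and NAPSA at most 1.73 CPM. Hepatocyte markers were near 0 as well: ALB was at 0 in 35 libraries and at most 0.512 CPM, and APOA1, AHSG, TTR and SERPINC1 stayed under that level. The 5 together summed to 0.103 to 1.10 CPM, and 0 of 5 passed the low-count filter. One library, Citri medium replicate 1, stood apart in the balance of long against short transcripts (0.231, where vehicle had 1.22 to 1.40), and the Aconiti high libraries had 16.48% to 18.95% of counts from mitochondrial genes, against 13.5% to 15.2% in Aconiti medium and 7.91% to 8.54% in vehicle.

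On GRCh38 with the gene models of GENCODE 29, the cluster spans 50012 bases of chromosome 4. FGB (ENSG00000171564) is on the plus strand at 154562956 to 154571086, FGA (ENSG00000171560) on the minus strand at 154583126 to 154590766, and FGG (ENSG00000171557) on the minus strand at 154604134 to 154612967. Promoter bases are printed here because all 3 genes stood low in the same groups and each is transcribed from its own start. They are RefSeq's on GRCh38.p14, 5′ to 3′ on the strand of the gene: the 250 bases before the start for FGA (minus strand, chr4:154590743-154590992) and FGB (plus strand, chr4:154562730-154562979), and 30 bases for FGG (minus strand, chr4:154612675-154612704), since other gene models of FGG begin farther upstream and cover its whole window. The last 24 bases before the start of FGA and of FGB also lie in the first exon of a GENCODE model. Capitals mark matches, on either strand, to either of 2 motifs: CTGGGA, the core of the interleukin 6 response element, and TTNNGNAA, a loose C/EBP consensus.
FGA: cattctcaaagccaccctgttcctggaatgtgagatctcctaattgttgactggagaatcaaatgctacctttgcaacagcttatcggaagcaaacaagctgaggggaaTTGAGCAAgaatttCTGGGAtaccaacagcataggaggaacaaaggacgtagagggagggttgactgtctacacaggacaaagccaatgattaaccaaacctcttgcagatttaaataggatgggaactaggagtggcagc
FGB: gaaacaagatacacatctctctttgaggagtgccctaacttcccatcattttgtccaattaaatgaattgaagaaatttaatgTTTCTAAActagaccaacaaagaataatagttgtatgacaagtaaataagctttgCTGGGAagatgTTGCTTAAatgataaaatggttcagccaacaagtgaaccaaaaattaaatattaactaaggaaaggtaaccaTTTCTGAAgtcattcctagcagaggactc
FGG: tggctaTCCCAGgagcTTACATAAagggac

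The search covered 250 bases before the start of each gene. The letters CTGGGA stood in all 3 windows, at bases -127 to -122 of FGA, -112 to -107 of FGB and -161 to -156 of FGG counted from the start, with a further match on the other strand of FGG at -42 to -37. TTNNGNAA matched once in FGA, 3 times in FGB and once in FGG, where TTACATAA lies at -32 to -25. None of the matches overlapped another. Of 35116 promoter windows of the same length, 28.7% held CTGGGA and 33.2% held TTNNGNAA on either strand. A match is a run of letters and not a measured binding site.

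FGB was the most abundant of the chains per length in vehicle. Per kilobase of the longest transcript, FGB stood at 83.5 ± 3.35 CPM per kb (SD, n = 3), FGA at 40.04 ± 2.29 and FGG at 40.5 ± 3.40, which ranked FGB 600th, FGG 1371st and FGA 1386th of 17153 genes. FGB was also first with the transcript of the common coding isoform as the length (83.5 against 65.5 for FGA and 46.8 for FGG) and with the union of exons (60.9 against 37.2 and 22.9). The order of FGA and FGG depended on that choice: they were level with the longest transcript, and FGA was higher with the other lengths. Within a gene the length cancels, so all values from here on are CPM.

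FGB, which carries the chain often described as limiting for assembly in liver cells, was at 161.6, 160.6 and 172.5 CPM in the 3 vehicle libraries. It was lowest under Yijung high, with 70.65, 84.42 and 67.16 CPM, followed by Aconiti high with 71.08, 81.68 and 88.19 CPM and Yijung medium with 92.76, 82.32 and 84.42 CPM. These 9 libraries lay apart from all others of the study, since the next lowest group means were 132.5 CPM under Bupleuri high, 136.9 in the single Bojungikgi high library and 138.4 under Citri high. At the low dose the same extracts stood at vehicle level, with 171.2 ± 7.12 CPM for Yijung and 163.7 ± 10.6 for Aconiti (SD, n = 3).

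FGA, the source of the A-alpha chain that thrombin cleaves first, had 144.7, 140.4 and 156.7 CPM in vehicle. Under Yijung high it had 84.44, 85.89 and 71.50 CPM, and under Aconiti high 73.49, 84.93 and 88.94 CPM. Yijung medium was next with 103.5, 86.26 and 88.91 CPM. The gap above it was wide: Citri high followed at 115.8, 119.0 and 110.2 CPM and Bupleuri high at 119.8, 121.7 and 125.0 CPM, and all 15 of these libraries lay below the lowest vehicle library.

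FGG, whose gamma chain holds polymerisation and platelet receptor sites, had 80.52, 76.50 and 89.97 CPM in vehicle. It was lowest under Yijung high with 43.10, 48.27 and 37.73 CPM, then under Yijung medium with 52.06, 48.10 and 48.02 CPM. Aconiti high followed with 45.13, 55.92 and 59.20 CPM, so Yijung medium and Aconiti high changed places against their order for FGB and FGA. The neighbours in that order overlapped for FGG: the means of Yijung medium and Aconiti high, 49.39 and 53.42 CPM, were 4.02 CPM apart, where the larger SD was 7.37.

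**Figure D1:**
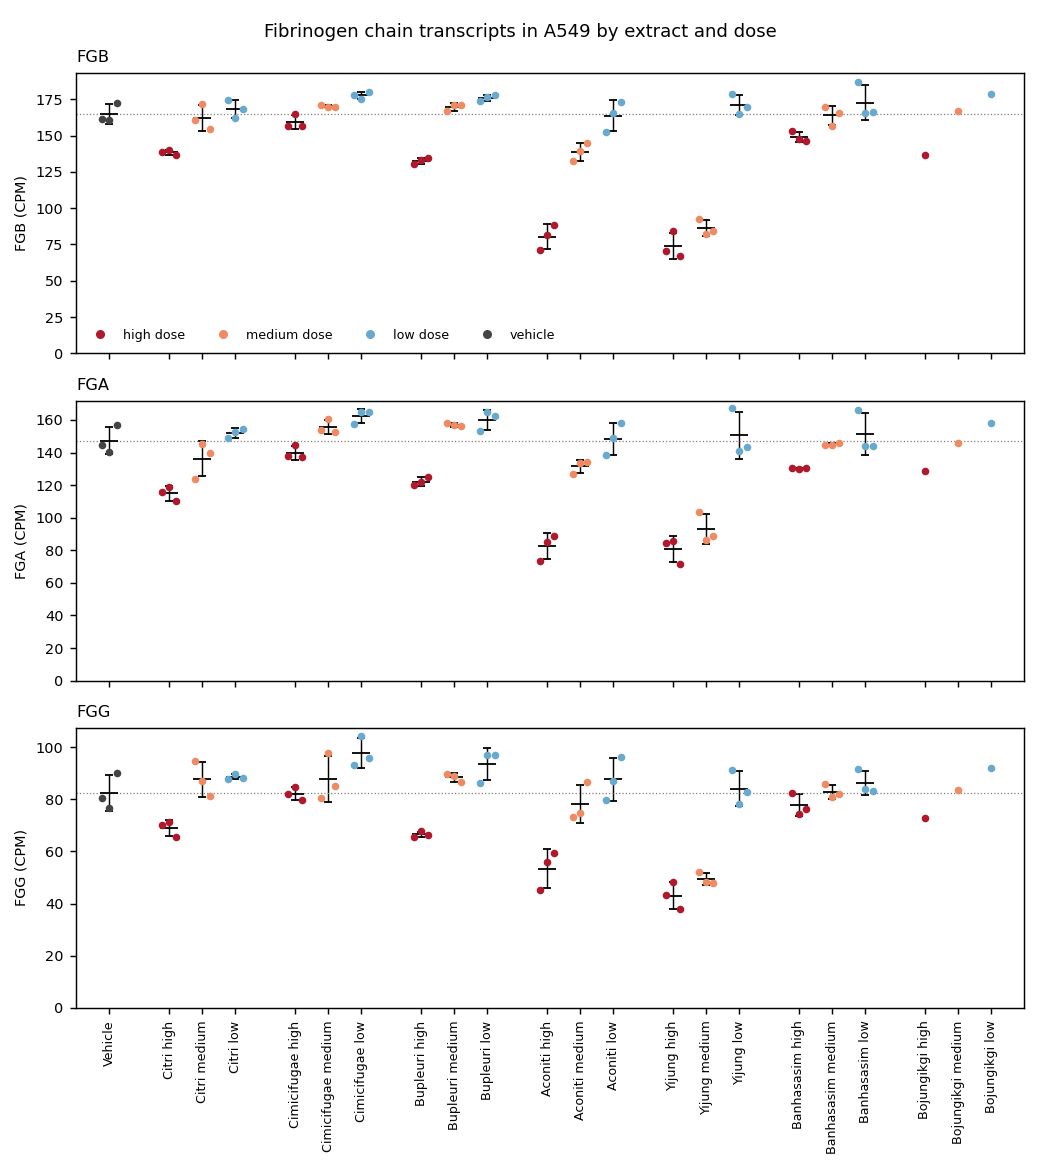
CPM of FGB, FGA and FGG on linear axes from 0 for each of the 60 libraries (points), with the mean and SD of 3 libraries as bars and the vehicle mean as a dotted line. Yijung high, Yijung medium and Aconiti high are the lowest groups for each chain, between 43.03 and 53.42 CPM for FGG where vehicle is at 82.33, and the low doses sit near or above the vehicle line.

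Summed over the chains, vehicle held 394.5 ± 21.9 CPM (SD, n = 3). The sum was 50.1% of that under Yijung high (197.7 ± 21.1 CPM), 54.8% under Aconiti high (216.2 ± 24.0) and 58.0% under Yijung medium (228.8 ± 17.1). Bupleuri high and Citri high were at 81.4% and 81.7%, the single Bojungikgi high library at 85.8%, Aconiti medium at 88.4% and Banhasasim high at 90.5%. The other 13 treated groups ranged from 96.6% under Cimicifugae high to 111% under Cimicifugae low. In the order of all 22 group means, neighbours were farther apart than the larger of their SDs in 7 of 21 steps for FGA, 4 for FGB, 5 for FGG and 4 for the sum. The step down to the 3 lowest groups exceeded it for each chain. Among these 3 groups, Yijung medium stood farther than that above its lower neighbour for FGA and FGG, and no step did for FGB.

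The fitted log2 folds against vehicle under Yijung high were -0.87 ± 0.07 for FGA, -1.15 ± 0.07 for FGB and -0.93 ± 0.09 for FGG (± SE). Under Aconiti high they were -0.84 ± 0.07, -1.04 ± 0.07 and -0.62 ± 0.09, and under Yijung medium -0.66 ± 0.07, -0.93 ± 0.06 and -0.74 ± 0.09. Of all 17268 genes tested, 2.30% had a fold below that of FGA, 1.07% below that of FGB and 1.93% below that of FGG under Yijung high. Under Aconiti high the shares were 3.39%, 1.98% and 6.76%. Smaller distances were fitted under Citri high (-0.36 ± 0.07, -0.25 ± 0.06 and -0.26 ± 0.08) and Bupleuri high (-0.27 ± 0.07, -0.32 ± 0.06 and -0.31 ± 0.08). The median fold over all genes was at most 0.02 in size in these comparisons, under Bupleuri high.

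Some cell type markers moved in the same groups, by the quasi-likelihood test of edgeR with adjustment over all genes. Of 3 fibroblast markers 2 were tested, and DCN was at 0 in 54 of 60 libraries. COL1A1, a fibrillar collagen gene, fell from 32.2 ± 0.63 CPM in vehicle to 15.2 ± 1.02 under Yijung high (log2 fold -1.09 ± 0.08, adjusted p = 8.6e-15) and to 21.7 ± 2.01 under Aconiti high (-0.57 ± 0.07, adjusted p = 3.3e-08). COL3A1, another, fell under Aconiti high from 1.94 to 0.919 CPM (-1.08 ± 0.22, adjusted p = 0.00011). The 3 summed to 33.6 to 35.0 CPM in vehicle, 16.5 to 17.8 under Yijung high, 13.5 to 14.1 under Yijung medium, 20.4 to 24.3 under Aconiti high and 28.5 to 45.5 in the other groups. Of 5 epithelial markers, CDH1, the cell adhesion protein E-cadherin, fell under Yijung high from 28.6 ± 1.79 to 14.2 ± 1.11 CPM (-1.01 ± 0.13, adjusted p = 3.7e-07) and was at 27.8 ± 2.45 under Aconiti high. KRT19 rose under Aconiti high (0.53 ± 0.14, adjusted p = 0.0033, and 0.28 as the fold with the length balance in the fit). The part of any of these markers in the chain values was not tested. In bulk RNA, fewer cells of a type and less RNA per cell cannot be told apart.

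Over the 18 doses and 3 chains, all 3 treated libraries lay below all 3 vehicle libraries in 19 of 54 cases, above them in 4 and overlapped them in 31. The 19 were all chains under Citri, Bupleuri, Aconiti and Yijung high and Yijung medium, with FGA and FGB under Aconiti medium and Banhasasim high. The 4 above were all chains under Cimicifugae low and FGB under Bupleuri low. Over all genes tested, the share with the 3 libraries below vehicle was 7.84% under Citri high, 12% under Bupleuri high, 20.7% under Aconiti high, 11.7% under Yijung high, 12.9% under Yijung medium, 12.7% under Aconiti medium and 9.35% under Banhasasim high. The share above vehicle was 10.1% under Cimicifugae low and 9.86% under Bupleuri low. The high-dose share of genes below vehicle under Cimicifugae was 14.3%, and no chain was among them. In the other 10 dose groups it was 4.82% to 11.4%. The chains were selected on these contrasts, so nothing is read from their counts.

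The comparison of high with low dose avoids the vehicle and its set label. In each of the 6 extracts with replicates, the 3 high-dose libraries lay below the 3 low-dose libraries for each of the 3 chains, 18 of 18 cases. The share of all genes in that position was 15.1% for Aconiti, 9.64% for Cimicifugae, 8.91% for Yijung, 7.09% for Citri, 5.79% for Bupleuri and 5.33% for Banhasasim. The chains share their libraries, so the 18 cases are not independent of each other, and the chains were selected on the same libraries.

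The size differed widely between extracts. High against low dose of Yijung gave log2 folds of -0.90 ± 0.07 for FGA, -1.21 ± 0.07 for FGB and -0.96 ± 0.09 for FGG (± SE), and Aconiti gave -0.85 ± 0.07, -1.03 ± 0.07 and -0.71 ± 0.09. Bupleuri lay at -0.39 ± 0.07, -0.41 ± 0.06 and -0.49 ± 0.08, and Citri at -0.40 ± 0.07, -0.28 ± 0.06 and -0.36 ± 0.08. Cimicifugae had -0.22, -0.16 and -0.25 and Banhasasim -0.22, -0.21 and -0.15. In the single Bojungikgi libraries FGA was at 158.2, 146.1 and 128.7 CPM from low to high dose, FGB at 178.5, 166.6 and 136.9, and FGG at 91.94, 83.64 and 72.71, which has no replicate check.

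**Figure D2:**
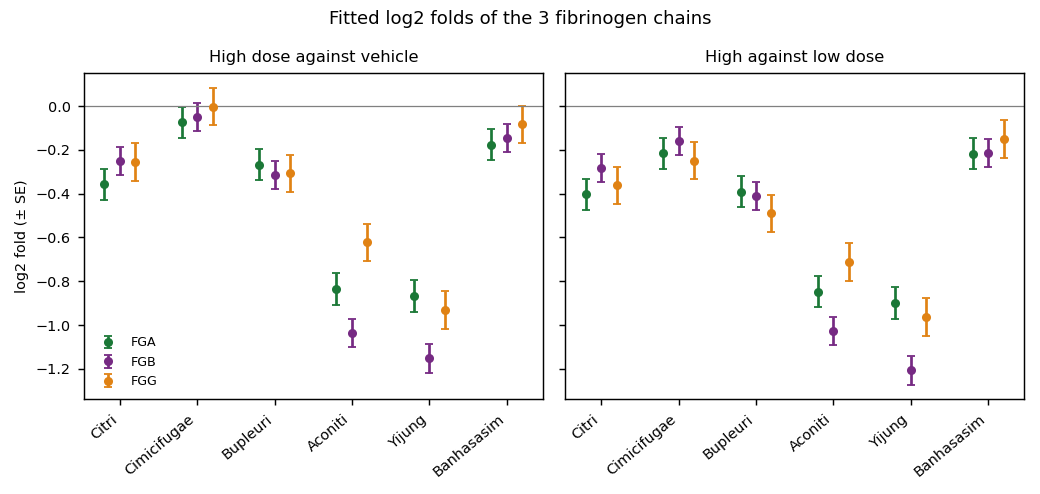
Fitted log2 folds (points) with their standard errors (bars) of FGA, FGB and FGG for 6 extracts, high dose against vehicle on the left and high against low dose on the right. FGB has the widest fold under Aconiti and Yijung, -1.04 and -1.15 against vehicle, and every point of the right panel lies below 0.

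The step between medium and high dose set Yijung and Aconiti apart. With Yijung, FGB was at 171.2 CPM at 20 µg/mL, 86.50 at 100 µg/mL and 74.08 at 500 µg/mL, so most of the distance lay between the low and the medium dose. With Aconiti it was at 163.7 CPM at 14.4 µg/mL, 138.9 at 72 µg/mL and 80.32 at 360 µg/mL, and most of the distance lay between the medium and the high dose. FGA followed the same course, with 150.5, 92.89 and 80.61 CPM for Yijung and 148.5, 131.6 and 82.45 CPM for Aconiti. FGG did too, with 84.06, 49.39 and 43.03 CPM for Yijung and 87.58, 78.16 and 53.42 CPM for Aconiti. The doses of these extracts differ in µg/mL and are set side by side only.

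The ratio between chains within a library needs no scaling between libraries. FGB to FGA was 1.116, 1.144 and 1.101 in vehicle. It was 0.967, 0.962 and 0.992 under Aconiti high, 0.837, 0.983 and 0.939 under Yijung high and 0.896, 0.954 and 0.95 under Yijung medium, so FGB counts exceeded FGA counts in all vehicle libraries and in none of these 9. Citri high went the other way with 1.197, 1.176 and 1.241, the only one of 18 dose groups whose 3 libraries lay above vehicle. Aconiti medium (1.056 ± 0.022), Bupleuri high (1.085 ± 0.008) and Bupleuri medium (1.080 ± 0.023, SD, n = 3) also lay below all vehicle libraries, at 1.121 ± 0.022, which makes 6 groups below.

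FGG to FGB was 0.498, 0.476 and 0.521 in vehicle. It was highest under Aconiti high with 0.635, 0.685 and 0.671, and it lay above all vehicle libraries at each Aconiti dose, with group means of 0.664 ± 0.026 for high, 0.562 ± 0.031 for medium and 0.534 ± 0.018 for low (SD, n = 3). Yijung high and medium were also above vehicle, at 0.581 ± 0.025 and 0.572 ± 0.012, while Yijung low at 0.491 ± 0.018 was not. Cimicifugae low was the sixth such group, at 0.550 ± 0.039, with 0.523, 0.594 and 0.532 in its libraries. Its replicate 2, at 0.594, had a balance of long against short transcripts of 0.659, where the other replicates had 1.25 and 1.26. The part of that balance in this ratio was not tested.

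FGG to FGA was 0.556, 0.545 and 0.574 in vehicle, and 0.614, 0.658 and 0.666 under Aconiti high, above all vehicle libraries. The libraries of 6 of 18 dose groups lay above vehicle: also Aconiti low, Citri high and medium and Cimicifugae high and low. Under Yijung high it was 0.510, 0.562 and 0.528, which overlapped vehicle. Thus all 3 chains were low under both extracts, with FGB lowest relative to vehicle in each, while FGG kept more of its vehicle level under Aconiti high (64.9%) than FGA (56.0%), and less under Yijung high (52.3%) than FGA (54.7%). The difference between the extracts was not tested.

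A library that stood apart in quality also did so in its ratios. Citri medium replicate 1, the library with the lowest balance of long against short transcripts, had the highest FGG to FGA ratio of all libraries, 0.762 (95% Wilson interval 0.721 to 0.804, counting error only), where the other Citri medium libraries had 0.599 and 0.582. Its FGB to FGA ratio of 1.297 was the highest as well. The FGA gene has the longest transcript of the 3, at 3678 bases against 1975 for FGB and 2031 for FGG, where it retains an intron. The common coding isoforms are closer in length, at 2248 bases for FGA, 1975 for FGB and 1760 for FGG. The balance was 0.758 to 1.296 in Aconiti high and 0.873 to 1.35 in Yijung high libraries, and its part in the ratios was not tested. With the balance as a term in the fit, the log2 fold of FGG under Aconiti high was -0.75 in place of -0.62.

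**Figure D3:**
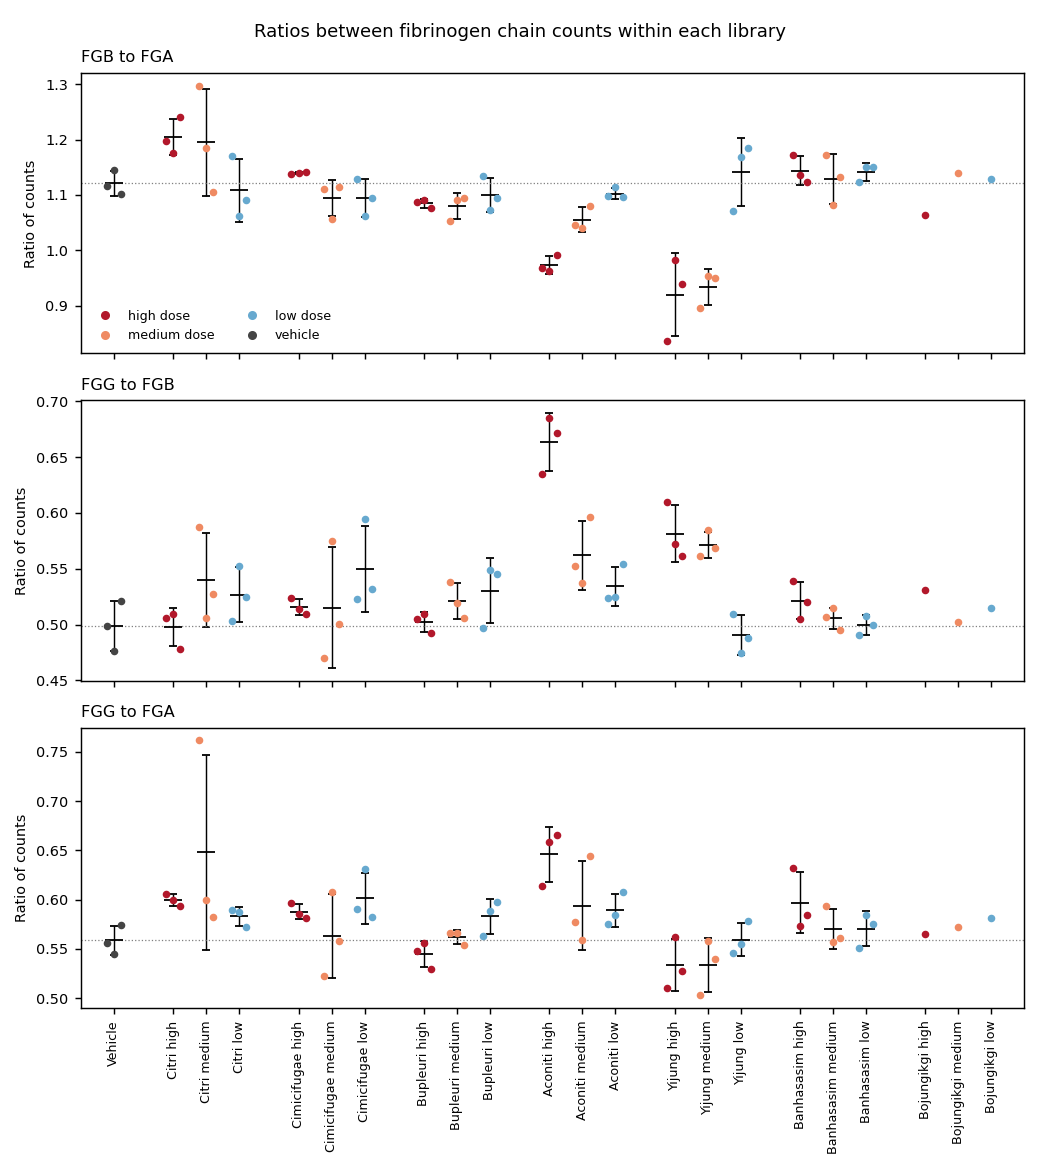
Ratios of counts FGB to FGA, FGG to FGB and FGG to FGA in each library (points), with the mean and SD of 3 libraries as bars and the vehicle mean as a dotted line, on axes that do not start at 0. FGB to FGA is under 1 in all libraries of Aconiti high, Yijung high and Yijung medium, FGG to FGB is highest in Aconiti high, and the isolated FGG to FGA point at 0.762 is Citri medium replicate 1.

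The chains followed each other closely. Over 19 group means of log2 CPM, Pearson's r was 0.983 between FGA and FGB, 0.973 between FGA and FGG and 0.977 between FGB and FGG. Without the 3 lowest groups, r over the remaining 16 was 0.936, 0.919 and 0.923. Deviations of the 57 libraries from their group means gave 0.775, 0.709 and 0.765. These points share libraries and scaling, and the values are descriptions. The pooled SD of log2 CPM within groups was 0.086 for FGA, 0.076 for FGB and 0.105 for FGG.

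Among 10647 genes with a mean of at least 5 CPM, the 5 whose group means ran most like the mean log2 CPM of the 3 chains over 19 groups by Pearson's r were CASTOR3 (r = 0.982), FGFR3 (0.957), ARRB1 (0.953), OPN3 (0.951) and MYORG (0.948). Their order depended on the measure. By Spearman's rho they had, in that order, 0.768, 0.761, 0.807, 0.886 and 0.828, which ranked them 76th, 88th, 36th, 6th and 21st. FGFR3, a fibroblast growth factor receptor on the same chromosome but outside the cluster, was at 11.3 ± 0.83 CPM in vehicle, 5.11 ± 1.15 under Aconiti high, 4.89 ± 0.35 under Yijung high and 5.12 ± 0.42 under Yijung medium (SD, n = 3). CASTOR3 was at 18.4 ± 0.85, 11.7 ± 0.71, 10.2 ± 0.85 and 12.4 ± 0.98 CPM in these groups. Without the 3 lowest groups r was 0.882 for CASTOR3, 0.667 for FGFR3, 0.629 for ARRB1, 0.770 for OPN3 and 0.587 for MYORG. The 3 least alike by r were PAQR5 (-0.969), CDCP1 (-0.966) and FOSL1 (-0.959), with a rho of -0.879, -0.828 and -0.702. FOSL1, an AP-1 subunit, went from 28.4 ± 1.54 CPM in vehicle to 65.2 ± 1.47 under Aconiti high, 70.0 ± 6.52 under Yijung high and 66.2 ± 7.49 under Yijung medium.

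Of 10 protein-coding genes within 1 Mb of the cluster, 3 passed the low-count filter. PLRG1, a splicing factor next to FGB, was at 57.4 ± 1.5 CPM in vehicle, 61.9 ± 5.09 under Yijung high (log2 fold 0.11 ± 0.07, adjusted p = 0.43) and 64.3 ± 1.45 under Aconiti high (0.16 ± 0.07, adjusted p = 0.070 by edgeR's quasi-likelihood test, and 0.043 without Citri medium replicate 1). MAP9, which binds microtubules, had 39.1 ± 1.89 CPM in vehicle, 36.9 ± 2.72 under Yijung high (-0.09 ± 0.08, adjusted p = 0.61) and 39.9 ± 2.57 under Aconiti high. TMEM131L was at 11.6 ± 0.41 CPM in vehicle and fell under Aconiti high to 8.17 ± 1.38 (-0.51 ± 0.14, adjusted p = 0.0057), a call that ended without Aconiti high replicate 3 (adjusted p = 0.061). Under Yijung high TMEM131L was at 11.9 ± 1.69 CPM (adjusted p = 0.94).

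The remaining genes come from 9 lists of the fibrinogen pathway, and p-values for them are from the same edgeR fit, adjusted over all 17268 genes. Of all genes tested, 17% rose and 15.7% fell under Aconiti high, so 32.7% passed there, and 3.76% rose and 3.33% fell under Yijung high, so 7.09% passed. The shares that rose and fell were 1.08% and 0.88% under Cimicifugae high, 0.452% and 0.261% under Bupleuri high, 0.0869% and 0.0984% under Banhasasim high and 0.0347% and 0.0116% under Citri high. A list's share is to be read against these.

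In the list of transcription factors of liver and fibrinogen genes, 21 of 22 were tested. Under Aconiti high 6 rose and 5 fell and under Yijung high 2 rose and 2 fell, with list medians of 0.02 and -0.03 (log2). These are 52.4% of the list against 32.7% of all genes, and 19% against 7.09%. At the other 4 high doses 0 passed by edgeR, 12 reached an unadjusted p under 0.05 and 2 passed by DESeq2 in all. HNF4A, the nuclear receptor that keeps many hepatic genes on, fell in both. It had 111.2, 106.9 and 110.7 CPM in vehicle, 59.0, 48.4 and 54.4 under Yijung high (log2 fold -1.02 ± 0.08, adjusted p = 6.5e-14) and 75.5, 67.6 and 77.2 under Aconiti high (-0.58 ± 0.07, adjusted p = 3.8e-08). Against the low dose of the same extract the folds were -0.99 ± 0.08 (adjusted p = 1.8e-13) and -0.55 ± 0.07 (adjusted p = 1.9e-07), with no overlap in either. Yijung medium was at 58.1 ± 1.2 CPM, Aconiti medium at 105.8 ± 1.6 and the low doses of these extracts at 107.3 CPM each. Most of the distance lay between low and medium dose for Yijung and between medium and high for Aconiti, as for the chains. The likeness did not hold in every group. Under Cimicifugae high HNF4A was at 93.1 ± 2.2 CPM, below all vehicle libraries, where the chains overlapped vehicle. Under Citri high it was at 104.9 ± 1.3 CPM, where the chain sum was 81.7% of vehicle. The part of HNF4A in the chain values was not tested. HNF4A was chosen for this display after its values were seen. It was also low in the library with the lowest length balance, Citri medium replicate 1, at 76.4 CPM, where the other Citri medium libraries had 107.5 and 109.0. With that balance in the fit the folds were -0.48 under Aconiti high and -0.98 under Yijung high.

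CEBPG, a C/EBP partner without an activation domain, rose under Aconiti high from 122 ± 2.2 to 247 ± 21.4 CPM (1.02 ± 0.05, adjusted p = 3.3e-21). CEBPB, the C/EBP factor of the acute phase, rose there from 56.4 ± 8.80 to 142 ± 30.5 CPM (1.34 ± 0.22, adjusted p = 6.7e-06). Under Yijung high CEBPB was at 91.1 ± 32.2 CPM (0.70 ± 0.22, adjusted p = 0.044), a call that ended without Yijung high replicate 2 (adjusted p = 0.54) or any 1 vehicle library (0.053 to 0.23), and on leaving out any of 3 libraries of other groups or fitting the 6 samples alone. Vehicle had the lowest CEBPB mean of all groups, and the low doses stood above it, at 82.2 ± 9.84 CPM for Aconiti and 85.0 ± 3.54 for Yijung. High against low dose of Aconiti the fold was 0.79 ± 0.22 (adjusted p = 0.0060). CEBPB was also high in the library with the lowest length balance, and with that balance in the fit its folds against vehicle were 0.99 and 0.52. ONECUT2 fell under Yijung high from 7.62 ± 0.12 to 5.16 ± 1.02 CPM (-0.58 ± 0.14, adjusted p = 0.0037, and 0.12 without Yijung high replicate 2). It also fell under Aconiti high, where it is named outside the rule for list genes (-0.57 ± 0.14, adjusted p = 0.0011). CEBPD was expressed in vehicle at 11.1 CPM and passed no test at a high dose.

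Of the list for interleukin 6 and gp130 signalling, 18 of 20 were tested. Under Aconiti high 5 rose and 3 fell (median 0.12), under Yijung high 1 rose and 1 fell (median -0.03), and under Cimicifugae high 1 fell. The shares passing were 44.4% against 32.7% of all genes under Aconiti high and 11.1% against 7.09% under Yijung high. The cytokine IL6 itself was at 0.01 CPM in vehicle. SOCS3, the feedback inhibitor that STAT3 induces, rose under Aconiti high from 21.3 ± 1.24 to 37.4 ± 1.22 CPM (0.81 ± 0.07, adjusted p = 4.1e-12) and under Yijung high to 30.5 ± 2.13 CPM (0.52 ± 0.07, adjusted p = 1.3e-06). Under Aconiti high the gp130 ligands LIF (85.6 ± 0.54 to 121 ± 6.15 CPM, adjusted p = 6.6e-07) and IL11 (31.4 ± 1.04 to 43.9 ± 2.81 CPM, adjusted p = 9.6e-06) rose too. The 3 that fell there, named outside the rule for list genes, were STAT3 (-0.19 ± 0.04, adjusted p = 0.00098), JAK1 (-0.30 ± 0.10, adjusted p = 0.020) and JAK2 (-0.45 ± 0.16, adjusted p = 0.029). IL11 fell under Cimicifugae high to 21.1 ± 0.66 CPM (-0.57 ± 0.08, adjusted p = 1.1e-05). STAT3 was at 154 ± 4.63 CPM under Yijung high against 175 ± 3.51 (-0.18 ± 0.04, adjusted p = 0.0050), which ended without Yijung high replicate 2 (0.063) or the low-count filter (0.14).

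**Figure D4:**
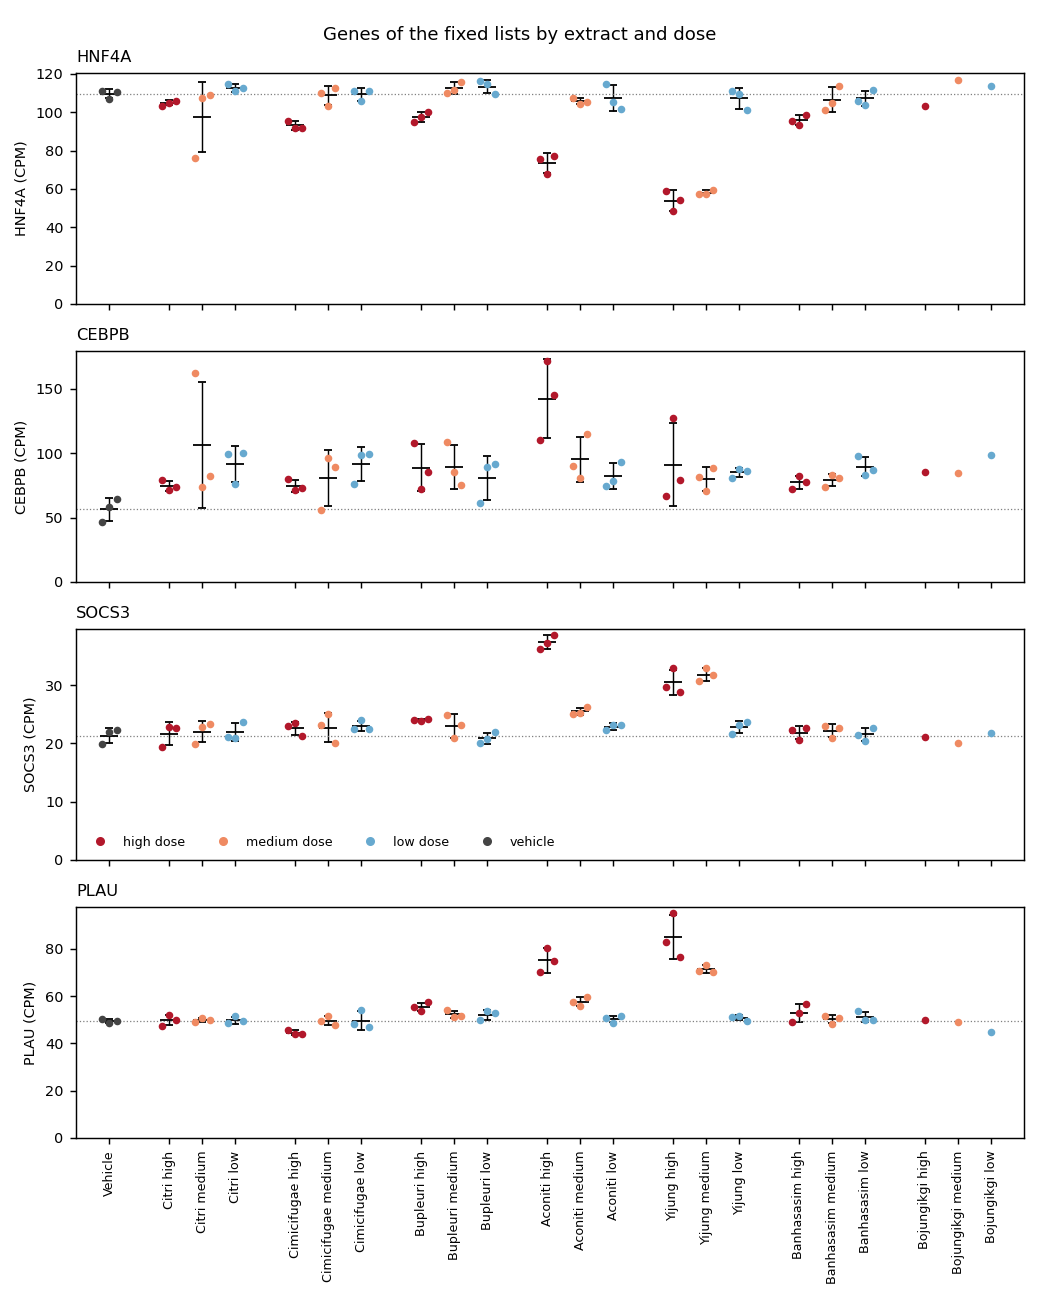
CPM on linear axes from 0 of HNF4A, CEBPB, SOCS3 and PLAU in each library (points), with the mean and SD of 3 libraries as bars and the vehicle mean as a dotted line. HNF4A is lowest under Yijung high, Yijung medium and Aconiti high (53.9, 58.1 and 73.5 CPM against 109.6), SOCS3 is highest in the same groups, and CEBPB varies widely between replicates.

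Of 22 acute-phase plasma proteins 10 were tested, and CRP, SAA1, SAA2, HP and ORM1 were at 0.12 CPM or less in vehicle. The median fold of the tested ones was -0.69 under Yijung high, where 2 fell, 0.13 under Aconiti high, where 3 rose and 1 fell, and 0.62 under Banhasasim high, where 2 rose. The 4 called under Aconiti high are 40% of those tested against 32.7% of all genes, and the 2 under Yijung high 20% against 7.09%. C3, the central complement protein, fell under Yijung high from 31.1 ± 1.55 to 18.02 ± 2.35 CPM (-0.79 ± 0.15, adjusted p = 0.00017). Under Banhasasim high it was at 48.4 ± 1.52 CPM (0.64 ± 0.14, adjusted p = 0.031), a call that ended on leaving out any of the 6 libraries (0.10 to 0.24). CP, the copper carrier ceruloplasmin, fell under Aconiti high from 5.30 ± 0.31 to 2.09 ± 0.79 CPM (-1.32 ± 0.24, adjusted p = 2.1e-05). Under Yijung high CP was at 3.16 ± 0.60 CPM (-0.76 ± 0.23, adjusted p = 0.029, and 0.24 without Yijung high replicate 2, with each vehicle library also ending the call at 0.057 to 0.088).

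Of 17 hepatocyte secretory proteins 7 were tested. Under Yijung high 2 fell (median -0.49), under Aconiti high 1 rose (median -0.09) and under Cimicifugae high 1 rose (median -0.02). That is 28.6% against 7.09% of all genes under Yijung high and 14.3% against 32.7% under Aconiti high. VTN, the adhesion protein vitronectin, fell under Yijung high from 19.1 ± 1.27 to 11.2 ± 0.86 CPM (-0.77 ± 0.13, adjusted p = 3.4e-05), and the other was F2, prothrombin, at -0.59. RBP4, the retinol carrier, rose under Aconiti high from 3.92 ± 0.62 to 5.95 ± 0.66 CPM (0.61 ± 0.16, adjusted p = 0.0030). AMBP was at 5.07 ± 0.25 CPM under Cimicifugae high against 3.34 ± 0.18 (0.60 ± 0.16, adjusted p = 0.035), and each library left out ended this call (0.085 to 0.14).

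Coagulation factors and their inhibitors, 15 tested of 24, had 4 that rose and 2 that fell under Aconiti high, 3 and 3 under Yijung high and 1 and 2 under Cimicifugae high, with medians of 0.03, -0.09 and -0.04. The share passing was 40% under both Aconiti high and Yijung high, against 32.7% and 7.09% of all genes. THBD, thrombomodulin, which turns thrombin from fibrinogen towards protein C, rose under Aconiti high from 35.0 ± 0.80 to 59.9 ± 4.24 CPM (0.78 ± 0.06, adjusted p = 4.0e-14) and under Yijung high to 50.6 ± 2.92 (0.53 ± 0.06, adjusted p = 7.4e-09), and fell under Cimicifugae high to 26.9 ± 0.32 (-0.38 ± 0.06, adjusted p = 5.5e-05). TGM2, a transglutaminase that can crosslink fibrin chains, fell under Cimicifugae high from 425 ± 6.26 to 262 ± 6.39 CPM (-0.69 ± 0.07, adjusted p = 9.7e-09), where FGA, FGB and FGG overlapped vehicle. The tissue factor pathway inhibitors rose under Yijung high, TFPI2 from 98.9 ± 0.34 to 142 ± 6.12 CPM (adjusted p = 8.8e-08) and TFPI from 44.6 ± 0.41 to 56.3 ± 3.62 CPM (adjusted p = 0.00032). TFPI also rose under Cimicifugae high to 55.5 ± 1.44 CPM (adjusted p = 0.0031, and 0.064 without the low-count filter). F12 rose under Aconiti high from 8.22 ± 0.90 to 14.8 ± 1.47 CPM (adjusted p = 3.5e-05), and PROCR was at 68.7 ± 5.62 against 79.4 ± 2.21 CPM (adjusted p = 0.040), a call that ended without any 1 vehicle library or Aconiti high replicate 1 or 2 (0.062 to 0.19).

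In the fibrinolysis list, which covers the system that dissolves fibrin, 10 of 12 were tested. Under Aconiti high 5 rose (median 0.40), under Yijung high 4 rose and 1 fell (median 0.19), under Bupleuri high 2 rose and under Cimicifugae high 1 rose. The share passing was 50% under both Aconiti high and Yijung high, against 32.7% and 7.09% of all genes. The members that rose included both an activator and an inhibitor. PLAU, urokinase, rose from 49.4 ± 0.77 to 84.8 ± 9.36 CPM under Yijung high (0.78 ± 0.06, adjusted p = 1.9e-13) and to 75.1 ± 5.23 under Aconiti high (0.60 ± 0.06, adjusted p = 4.8e-11), and its receptor PLAUR from 15.0 ± 0.72 to 26.3 ± 3.24 and 24.0 ± 3.59 CPM (adjusted p = 2.4e-06 and 1.7e-05). SERPINE2, protease nexin 1, rose under Yijung high from 46.3 ± 1.89 to 73.3 ± 3.33 CPM (adjusted p = 2.5e-12). It also rose under Aconiti high to 65.4 ± 2.65 CPM (0.50 ± 0.06, adjusted p = 1.3e-09), where it is named outside the rule for list genes. It was at 57.5 ± 1.72 under Bupleuri high (adjusted p = 0.00081, and 0.074 without the low-count filter) and at 54.2 ± 1.33 under Cimicifugae high (adjusted p = 0.017), where leaving out either of vehicle replicates 1 and 2 or of Cimicifugae high replicates 1 and 2 ended the call (0.051 to 0.15).

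Of 11 fibrinogen receptors 9 were tested, and 3 rose under Aconiti high and 2 under Yijung high, with medians of 0.02 and 0.00. These are 33.3% and 22.2% of those tested, against 32.7% and 7.09% of all genes. At the other 4 high doses 0 passed by edgeR and by DESeq2, and 6 reached an unadjusted p under 0.05 in all. ITGA5, an integrin subunit, rose under Aconiti high from 47.0 ± 2.67 to 59.99 ± 3.06 CPM (0.35 ± 0.07, adjusted p = 9.6e-05). Under Yijung high it was at 55.5 ± 1.10 CPM (adjusted p = 0.024), a call that ended without vehicle replicate 2 or 3 or Yijung high replicate 1 or 2 (0.061 to 0.17). ICAM1, named outside the 5 CPM rule after its values were seen, was at 0.71 CPM in vehicle and rose with log2 folds of 2.01 under Aconiti high and 0.99 under Yijung high. Of 20 other genes with a fibrinogen-like domain 7 were tested, and under Aconiti high FIBCD1 rose (0.52) and MFAP4 fell (-1.79), both under 5 CPM, which is 28.6% against 32.7% of all genes.

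All 6 endoplasmic reticulum chaperones of fibrinogen assembly were tested. Under Aconiti high 2 rose and 1 fell, with a median of -0.05, which is 50% of the list against 32.7% of all genes. At the other 5 high doses 0 passed by edgeR, 4 reached an unadjusted p under 0.05 in all, and DESeq2 called 3, all under Banhasasim high. HSPA5, the chaperone BiP that holds unassembled chains, rose under Aconiti high from 635 ± 24.4 to 1037 ± 12.04 CPM (0.71 ± 0.05, adjusted p = 2.0e-16). CALR fell under Aconiti high from 471 ± 9.85 to 377 ± 32.0 CPM (-0.32 ± 0.09, adjusted p = 0.0047). P4HB was there at 711 ± 75.9 against 600 ± 12.3 CPM (0.24 ± 0.07, adjusted p = 0.0080), which ended without Aconiti high replicate 2 (0.079). Under Yijung high none of the 6 passed against vehicle. Against the low dose of Yijung, HSP90B1, named outside the rule for list genes, fell (-0.17 ± 0.05, adjusted p = 0.033). The part of the chaperones in the chain values was not tested.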

How the data were processed

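The deposited table holds expected counts per gene from RSEM, not normalized by the authors. The tools listed in the submitters' processing notes are RSEM 1.3.3, STAR 2.7.3a, Trim Galore 0.6.5 and FastQC 0.11.9, and the build is GRCh38. The annotation release and the strand setting are not given in the sources used here. Of 269 sample columns, 60 matched labels of the series and 209 were not used. Identifiers were matched to GENCODE 29 (57055 of 60675), whose models give coordinates and lengths and may differ from the authors'.

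Expected counts, of which 9.37% were not whole, were rounded. A single edgeR 4.0.16 quasi-likelihood model (R 4.3.3, TMM scaling, default low-count filter by group) was fitted to 57 libraries in 19 groups of 3, testing 17268 genes in 24 comparisons, with Benjamini-Hochberg adjustment within each and a threshold of 0.05. It had 38 residual degrees of freedom and a biological coefficient of variation of 10.1%. The SE of a log2 fold was taken as the fold's size divided by the root of F. CPM use TMM-scaled totals of all 60 libraries. Bojungikgi stayed outside the fit. On data simulated for Yijung high against vehicle over 17101 genes, 76 of 100 genes with a planted 1.5-fold change and 100 of 100 with a 2-fold change were recovered, with 15 false calls. The simulation gave every gene the same dispersion and planted changes only in genes above a count minimum. It had no libraries that stood apart in quality, so these rates need not hold for the real libraries.

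The members and the 9 lists were chosen with earlier results of these data known. Named list genes are, at each high dose against vehicle, up to 3 called members per list by size of fold whose higher group has a mean of 5 CPM or more. Those outside that rule are named as such or only counted, and some genes that the rule takes are not reported here. Alternatives were RLE size factors, DESeq2 1.42.0, no low-count filter, the replicate number as a block, a fit to the 6 compared samples alone, mitochondrial genes removed before scaling, leaving out each library, and other transcript lengths. Spearman's rho was the alternative for the likeness. The length balance (mean log2 CPM of transcripts over 6 kb minus that of those under 1.5 kb) as a covariate, the common coding isoform as length, and the likeness without the 3 lowest groups were chosen after seeing the data. The closest replicates differed by more than sampling noise (chi-square 2.03 per degree of freedom), so none were merged.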

Additional observations from a re-analysis of the deposited data

How the results depend on the processing

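Of 1005 values of the 72 chain folds under the alternatives, 996 stayed within the spread between replicates, 9 moved further. With the length balance as a covariate FGG moved from 0.09 to -0.044 under Citri medium and from -0.62 to -0.75 under Aconiti high. Leaving out 1 library gave, against vehicle, -1.09 to -0.95 for FGB and -0.68 to -0.51 for FGG under Aconiti high and -1.26 to -1.09 for FGB under Yijung high. High against low dose it gave -0.90 to -0.76 for FGA, -1.08 to -0.93 for FGB and -0.78 to -0.59 for FGG with Aconiti and -1.31 to -1.14 for FGB with Yijung. Per kb in vehicle, FGB to FGA was 2.09 with the longest transcript, 1.64 with the exon union and 1.28 with the common coding isoform, FGG to FGA 1.01, 0.614 and 0.713, and FGG to FGB 0.485, 0.375 and 0.560.

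Counts of changed genes depended on the processing, and the cause was not tested. High dose against vehicle, the count without the low-count filter was 1 for Citri (8 in the fit reported), 137 for Cimicifugae (339), 60 for Bupleuri (123), 816 for Yijung (1225) and 17 for Banhasasim (32). With the length balance it was 50, 1441, 675, 2766 and 187, and with only the 6 samples 52, 1932, 1024, 622 and 144. DESeq2 gave 16 for Citri, 202 for Bupleuri and 56 for Banhasasim. Leaving out 1 library gave 2 to 10, 149 to 544, 51 to 205, 740 to 1650 and 15 to 55. High against low dose, the length balance gave 6191 for Aconiti (3922), 1943 for Yijung (852), 773 for Cimicifugae (232), 275 for Bupleuri (61), 92 for Banhasasim (22) and 19 for Citri (4). The 6 samples alone gave 1500 for Aconiti, 344 for Yijung, 33 for Citri, 11 for Cimicifugae and 7 for Banhasasim. No filter gave 109 for Cimicifugae, 33 for Bupleuri and 9 for Banhasasim. DESeq2 gave 93 for Bupleuri and 38 for Banhasasim. Without 1 library the range was 1 to 4 for Citri, 105 to 382 for Cimicifugae, 29 to 112 for Bupleuri and 9 to 34 for Banhasasim.

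List members called over the 6 high doses rose with the length balance from 4 to 10 (hepatocyte proteins), 11 to 17 (interleukin 6 and gp130), 15 to 26 (transcription factors), 2 to 8 (fibrinogen-like, 4 with the 6 samples), 5 to 9 (receptors) and 3 to 7 (chaperones). Chaperones had 5 with RLE factors, 5 without mitochondrial genes and 6 with DESeq2. Without 1 library the ranges were 4 to 8 (acute-phase), 2 to 5 (hepatocyte), 7 to 14 (interleukin 6 and gp130), 2 to 4 (fibrinogen-like), 3 to 6 (receptors) and 3 to 6 (chaperones).

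Over all sets, same-numbered libraries did not deviate together (median r 0.00940 over 513 pairs, over 0.1 in 20.5% of them against 19.1% of other pairs). Within a set label the median r was 0.032 over 135 same-numbered pairs, with 26.7% over 0.1. For 270 pairs of different numbers within a set label it was -0.016, with 21.1% over 0.1. The numbers were not used to pair samples in the fit reported, and whether they pair samples within a set was not settled. With the replicate block, high against vehicle, the test called 8, 340, 133, 5611, 1242 and 32 genes from Citri to Banhasasim in the order just used for high dose against vehicle (Aconiti before Yijung), and 4, 229, 63, 3899, 855 and 22 high against low. The effect of depth was not tested, and the lowest count of any chain in a library was 687, for FGG.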
